A study of Mus musculus with 4 samples.

Results

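L2/3-Calb1 excitatory neurons are the cells that the authors' deposited annotation of the ventromedial prefrontal cortex (vmPFC) calls by that name, after a layer position and the calcium-buffering protein calbindin. They were taken as every cell with this subtype label in the metadata, matched to the count matrices by library and cell barcode, and numbered 357 of 9368 annotated excitatory neurons. The unsorted libraries 1, 2 and 3 held 111, 104 and 102 of them, and the sorted library 40. The other 6 subtypes (L2/3-Rorb, L5-Bcl6, L5-Htr2c, L5-S100b, L6-Npy and L6-Syt6) held the remaining 2705, 2382, 2361 and 1563 neurons of the same libraries.

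All animals were male C57BL/6 mice. The labels give an age of 8 weeks, which per the methods is the age at virus injection, and the cortex was dissected some weeks later. Each mouse had received 5 rAAV2-retro viruses, which enter axon endings and carry EGFP with a distinct barcode per target, in LH (lateral hypothalamus), BLA (basolateral amygdala), MD (mediodorsal thalamus), DMS (dorsomedial striatum) and AI (agranular insula). There was no uninjected group. The unsorted libraries held dissociated PrL and IL tissue of 1 mouse each, and the sorted library pooled 3 further mice and was enriched for EGFP-positive cells by FACS. Slices had been kept in CNQX and D-AP5, which block AMPA and NMDA receptors, before dissociation, and per the methods the sorted mice were handled the same way up to the sort. The sort, the animals and the library differ together between the groups and cannot be told apart.

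Pyramidal neurons of layers 2 and 3 are intratelencephalic: their axons go to other cortical areas, the striatum and the amygdala, and they do not form the main corticothalamic or subcerebral tracts of layers 5 and 6. Their identity is set up by transcription factors such as Cux2, Bhlhe22 (Bhlhb5) and Pou3f2 (Brn2). Calbindin, the product of Calb1, buffers calcium and is known from many interneurons and from a set of superficial pyramidal cells.

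Depth was set by the library first. The 4 libraries held 87841541, 83065993, 83882837 and 54749198 UMIs (unique molecular identifiers, each standing for 1 captured transcript) in 8040, 7443, 7243 and 2075 cell barcodes. Among L2/3-Calb1 neurons 0 cell barcodes were shared between libraries. Summed, the L2/3-Calb1 neurons gave 1944496, 2033689, 2066929 and 1101983 UMIs. Their median depth was 17475, 19257, 19434 and 28117.5 UMIs per neuron, against 21604, 22458.5, 23461 and 31842 in the other neurons. The difference was -3770.5 ± 416 UMIs (SD, n = 4 libraries), lower in 4 of 4, and an exact two-sided permutation test gave the smallest p that 4 pairs allow, which is above 0.05. The share of mitochondrial UMIs was 7.18%, 7.02%, 6.94% and 3.33% in the L2/3-Calb1 neurons, so that the sorted neurons stood apart in both depth and mitochondrial content.

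The 2 genes behind the label were counted first. The authors annotated their expression clusters by layer markers such as Cux2 and by differentially expressed genes. Detection of Calb1 and Cux2 therefore describes the label and cannot test it. Calb1 (chromosome 4, 15881264 to 15908064, plus strand, GRCm38) gave at least 1 UMI in 96.4%, 95.2%, 99.0% and 97.5% of the L2/3-Calb1 neurons of the 4 libraries. Cux2, a homeobox factor of upper layers, was detected in 91.9%, 91.3%, 89.2% and 100% of them. Of the 357 neurons, 318 had both transcripts, 28 had Calb1 alone, 10 had Cux2 alone and 1 had neither. With every neuron thinned to 10000 UMIs, Calb1 was found in 91.7%, 89.1%, 92.1% and 89.7% of the 350 neurons deep enough, and in 1.65% of 425 L6-Syt6 neurons drawn from the unsorted libraries. As a level of free RNA, 2511 cells with microglial transcripts were used (median depth 4248.5 UMIs against 19091 in L2/3-Calb1): at 2000 UMIs per cell Calb1 appeared in 0.518% of them and in 45.9% of the L2/3-Calb1 neurons. Slc17a7, the vesicular glutamate transporter of cortical excitatory neurons, was detected in every one of the 357 neurons, and Gad1 and Gad2, which make GABA, in 1.96% each.

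Markers of other cell classes were counted in the same neurons. No neuron held 10 or more UMIs of the inhibitory, microglial, OPC, astrocyte, endothelial or mural marker lists together, and 1 did so for the oligodendrocyte list. The astrocyte list summed to 27.8, 16.2, 24.2 and 13.6 CPM (UMIs scaled to the same total in every sum) in L2/3-Calb1 and to 3.73, 2.80, 3.87 and 1.23 CPM in the other neurons. Most of it was Slc1a3, a glutamate transporter known from astrocytes, at 25.2, 14.8, 20.3 and 12.7 CPM, while Gja1, the astrocyte connexin, had 0 UMIs in all 357 neurons. Slc1a3 was at 0 in 279 neurons and reached at most 6 UMIs. At 2000 UMIs per cell it was found in 4.2% of L2/3-Calb1 neurons and in 36.8% of the cells with microglial transcripts. That share cannot separate free RNA from transcripts made in those cells, so no expression is read from it. In the other excitatory neurons Slc1a3 was at 1.85, 1.45, 2.02 and 0.139 CPM. At 10000 UMIs it was found in 19.3%, 15.8%, 14.9% and 7.69% of L2/3-Calb1 neurons and in 2.12% of L6-Syt6 neurons. Whether L2/3-Calb1 neurons express it was not tested.

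A few neurons carried a second set of layer genes. After the most variable genes had been seen, the UMIs of Pcp4, Rprm, Foxp2, Syt6 and Hs3st4, all abundant in layer 6 neurons, were added up in each neuron. They reached 10 or more in 6 of 357 neurons, 3 in unsorted library 2 and 3 in unsorted library 3, where they ran from 23 to 163 UMIs, and were at most 7 in all others. These 6 neurons had 33836 to 48465 UMIs in total, against a median of 19006 in the rest, and each also held Calb1 (2 to 11 UMIs) and Cux2 (1 to 10 UMIs). The deepest held 81 UMIs of Pcp4, 49 of Rprm and 7 of Foxp2, and the one with the fewest held 23 of Pcp4 with none of the other 4 genes. No doublet caller was run, and whether these barcodes held 1 cell or more was not tested. Some results below are given with and without them, and the others with all 357 neurons only.

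**Figure D1:**
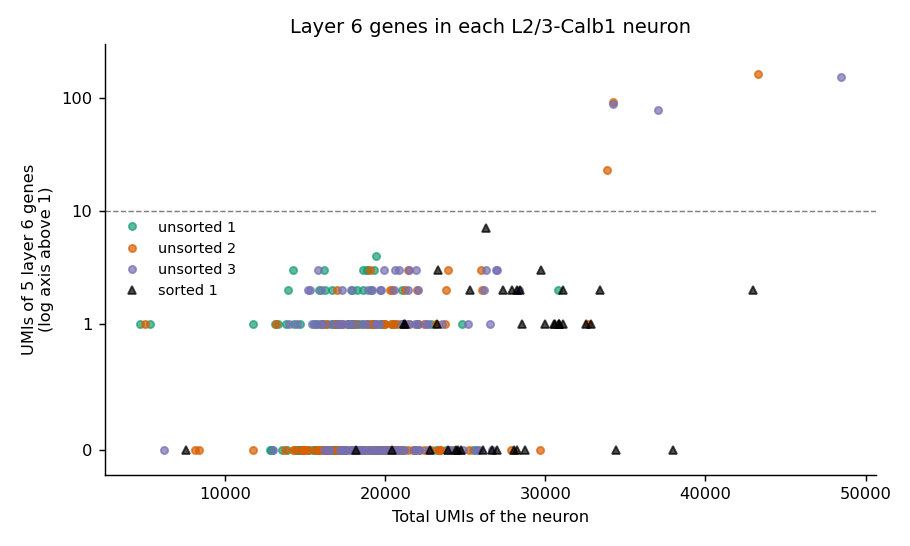
Summed UMIs of Pcp4, Rprm, Foxp2, Syt6 and Hs3st4 in each L2/3-Calb1 neuron (y axis) against its total UMIs (x axis), by library. The 6 neurons at 23 to 163 UMIs, all from the unsorted libraries 2 and 3, lie above the other 351, which stop at 7.

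The first question was what sets the expression of these neurons apart from that of the other excitatory neurons of the same libraries. UMIs were summed per library, and a gene was counted as higher or lower when its fitted log2 difference was at least 1 and it had the same direction in all 4 libraries. Since the subtype was defined by clustering on expression, these differences describe the cluster and carry no test. Of 15496 genes measured, 865 (5.58%) were higher and 1313 (8.47%) were lower in L2/3-Calb1, with a median log2 difference of -0.05 over all genes. With the 6 other subtypes weighted equally, so that L6-Syt6 no longer weighs most, 532 were higher and 988 lower. The list counts below were not redone with these weights. A gene past the rule can also be as high, or as low, in a single other subtype. Without the 6 neurons above, 871 were higher and 1342 lower, of which 840 and 1285 were shared with the full set. Of the marker lists of other cell classes, the astrocyte list had 2 of 4 genes higher (Slc1a3 and Aqp4) and 1 lower, the mural list had 2 of 4 lower, the inhibitory and microglial lists had 1 of 7 lower each, and the oligodendrocyte, OPC and endothelial lists had none of 5, 4 and 5 past the rule.

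The name gene was among the most distinct. Calb1 stood at 325, 353 and 302 CPM in the unsorted libraries and at 341 CPM in the sorted one, against 10.9, 10.1, 11.3 and 10.7 CPM in the other neurons (log2 difference 4.81 ± 0.08, SE). Every L2/3-Calb1 sum lay far above every sum of the others, and sorted and unsorted neurons overlapped. Among the other subtypes of the unsorted libraries Calb1 was highest in L6-Npy at 52.0 ± 1.98 CPM and L2/3-Rorb at 34.9 ± 6.03 CPM (SD, n = 3), then L5-S100b at 8.42 ± 0.87, L5-Bcl6 at 5.49 ± 0.82, L6-Syt6 at 2.14 ± 0.51 and L5-Htr2c at 1.71 ± 1.5. The last 2 of this order overlapped within their spread.

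Cux2 did not separate the 2 layer 2/3 subtypes. It stood at 155, 187, 147 and 243 CPM in L2/3-Calb1 and at 13.4, 10.5, 11.7 and 17.3 CPM in the other neurons (log2 difference 3.66 ± 0.09). In the unsorted libraries its level was 163 ± 21.6 CPM in L2/3-Calb1 and 140 ± 9.11 CPM in L2/3-Rorb (SD, n = 3), and it was under 5 CPM in each of the other 5 subtypes. Rorb, a nuclear receptor known from layer 4 that names the neighbouring subtype, was low here, at 6.69, 9.83, 5.81 and 10.9 CPM, against 176 CPM in L2/3-Rorb.

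**Figure D2:**
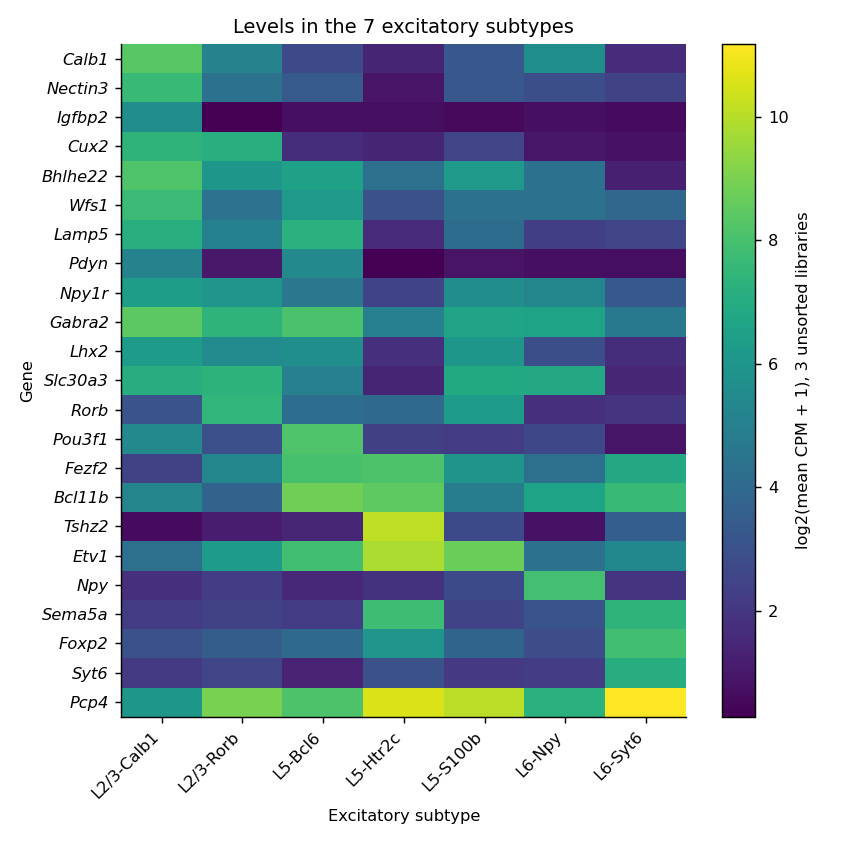
Heat map of log2(mean CPM + 1) over the 3 unsorted libraries (colour scale) for 23 genes (rows) in the 7 excitatory subtypes (columns). Calb1, Nectin3 and Igfbp2 are brightest in L2/3-Calb1, and Cux2 is similarly bright in L2/3-Rorb. The deep-layer genes at the bottom are darker in L2/3-Calb1 than in the subtype where each is highest. Pcp4 stands at 65.8 CPM in L2/3-Calb1 with the 6 neurons with layer 6 genes included.

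By the ratio to the next subtype Igfbp2, Nectin3, Plk5, Aldh1a3 and Evc2 stood above Calb1, whose ratio to L6-Npy was 6.73. Igfbp2, a secreted binding protein for insulin-like growth factors (chromosome 1, 72824503 to 72852474, plus strand), stood at 43.7, 56.5, 47.9 and 23.6 CPM in L2/3-Calb1. In the other neurons it stood at 0.577, 0.478, 0.482 and 0.199 CPM (log2 difference 6.49 ± 0.17), and the next subtype, L5-Bcl6, was lower by a factor of 69.3. Nectin3, a cell adhesion molecule of the nectin family (chromosome 16, 46387706 to 46498525, minus strand), was at 200, 215, 178 and 164 CPM against 6.93, 5.72, 6.56 and 7.16 CPM (4.73 ± 0.09) and 9.47 times its level in L2/3-Rorb. Its transcript was found in 93.6% of the neurons, that of Igfbp2 in 52.4%.

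Otof, which encodes the vesicle calcium sensor otoferlin (chromosome 5, 30367062 to 30461932, minus strand), was at 50.9, 49.2, 42.6 and 69.9 CPM against 1.38, 0.847, 1.20 and 2.09 CPM (5.16 ± 0.15). Evc2, part of the hedgehog machinery of the primary cilium, was at 58.1, 47.7, 50.8 and 51.7 CPM against 1.46, 1.38, 1.37 and 1.25 CPM (5.12 ± 0.13), and its gene overlaps an annotated transcript on the opposite strand. For both genes the lowest L2/3-Calb1 library lay above the highest library of the others by more than an order of magnitude. Plk5, a polo-like kinase, Aldh1a3, an enzyme of retinoic acid synthesis, and Pcdh20, a protocadherin, stood at 8.98, 8.00 and 5.57 times the level of the next subtype. Fbxl7, an F-box protein of ubiquitin ligases, stood at 5.83 times that level and Myh7, a slow myosin heavy chain, at 5.03 times, and both overlap annotated genes, so that their reads cannot be assigned with certainty.

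Other leading genes were shared with a second subtype. Pdyn, which encodes the dynorphin precursor, stood at 37.5, 27.5, 38.7 and 60.8 CPM in L2/3-Calb1 (log2 difference 3.86 ± 0.15), and its level over the 4 libraries was 1.01 times that of L5-Bcl6. Arhgef26, a guanine nucleotide exchange factor, was 0.934 times its level in L5-Bcl6, and Lpl, lipoprotein lipase, was 1.77 times its level in L6-Npy. The remaining genes of the leading 15 were Ccbe1 (4.29), Fbxl7 (4.21), Stard8 (4.02), Mgp (4.02), Zfhx4 (4.01) and Gm12371 (3.73), given as log2 differences. At 2000 UMIs per cell Stard8 was found in 6.16% of L2/3-Calb1 neurons and in 6.33% of the cells with microglial transcripts. That share cannot separate free RNA from transcripts made in those cells, so no expression is read from it. At 10000 UMIs it was found in 26.6%, 21.8%, 19.8% and 35.9% of L2/3-Calb1 neurons and in 0 of 425 L6-Syt6 neurons. Whether L2/3-Calb1 neurons express Stard8 was not tested. Mgp, matrix Gla protein, was at 32.9, 32.0 and 32.4 CPM in the unsorted libraries and at 9.07 CPM in the sorted one.

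**Figure D3:**
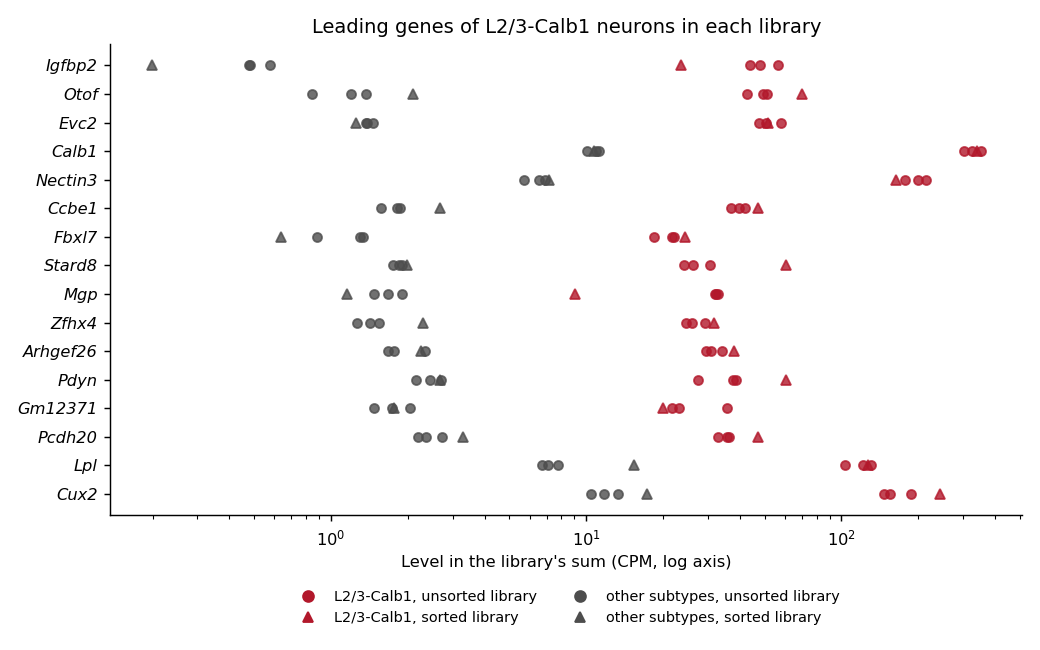
CPM (log axis) of the leading genes in the L2/3-Calb1 neurons and in the other excitatory neurons, one point per library. The L2/3-Calb1 points of every gene shown lie to the right of those of the others, and for Igfbp2 and Mgp the sorted library is the lowest of the 4.

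The lowest genes included several that were abundant in layer 5 or 6 subtypes. Rxfp1, the relaxin receptor, was at 0.514, 0.983, 0.484 and 1.81 CPM in L2/3-Calb1 and at 66.3, 71.1, 66.1 and 105 CPM in the other neurons (log2 difference -6.57 ± 0.21). Nxph3, a ligand of neurexins, was at 0.514, 2.46, 3.39 and 4.54 CPM against 107, 108, 122 and 138 CPM (-5.65 ± 0.17). Sema5a, a transmembrane semaphorin, was at 1.54, 4.92, 4.35 and 2.72 CPM against 107, 105, 106 and 123 CPM (-5.07). In each of these 3 genes no L2/3-Calb1 library came near the lowest pooled sum of the other neurons, but single subtypes were low as well. In the unsorted libraries Sema5a was at 3.60 CPM in L2/3-Calb1, 3.59 in L5-Bcl6, 4.45 in L2/3-Rorb and 4.74 in L5-S100b. Nxph3 was at 2.12 CPM in L2/3-Calb1, 3.24 in L5-Bcl6, 4.46 in L6-Npy and 6.07 in L2/3-Rorb. Rxfp1 was at 0.661 CPM in L2/3-Calb1, 6.47 in L2/3-Rorb and 7.26 in L5-Bcl6.

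Several of the lowest rested on 1 to 3 UMIs. Lsp1, an actin-binding protein, had 1 UMI in all 357 neurons, and its level in the others was 190 times that (95% Poisson interval 34.0 to 7487). Tshz2, a zinc finger factor of near-projecting neurons, had 3 UMIs, a ratio of 75.4 (25.8 to 366), and Spsb1, a ubiquitin ligase adaptor, had 3 as well, a ratio of 47.6 (16.3 to 231). These intervals cover counting error only. Slc5a5, the iodide transporter, and Ighm, an immunoglobulin constant region, followed with log2 differences of -5.39 and -5.34. This order holds with all 357 neurons: without the 6 neurons with layer 6 genes Foxp2 (-8.09), Hs3st4 (-7.55), Syt6 (-6.67) and Pcp4 (-6.58) lay below Slc5a5 and Ighm.

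The layer 6 genes moved with the 6 neurons. All 9 measured genes of the layer 6 corticothalamic list were lower, and the median log2 difference with all neurons was -4.03. The list median was not taken without the 6 neurons. Pcp4, a regulator of calmodulin, was at 17.0, 82.1, 98.2 and 19.1 CPM against 1539, 1643, 1752 and 1304 CPM in the other neurons, and without the 6 neurons it was at 17.0, 12.0, 24.1 and 19.1 CPM, a log2 difference of -6.58 in place of -5.03. Foxp2, a forkhead factor of layer 6, was at 0, 9.83, 11.1 and 0.907 CPM (-4.70 with all neurons). Tbr1, the T-box factor that specifies layer 6, was the least reduced of the list at 84.9, 87.5, 79.8 and 98.0 CPM against 265, 269, 260 and 242 CPM (-1.70 ± 0.08).

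The upper-layer lists went the other way, though not throughout. Of 9 upper-layer transcription factors 4 were higher, and 1 (Rorb) was lower. Bhlhe22 was at 307, 288, 268 and 204 CPM against 25.9, 21.8, 24.2 and 25.6 CPM (log2 difference 3.34), Lhx2 differed by 1.89 and Pou3f2 by 1.38. Of 11 other upper-layer markers 7 were higher, among them Wfs1, the endoplasmic reticulum protein wolframin, at 217, 194, 214 and 221 CPM against 19.4, 17.7, 17.3 and 23.7 CPM (3.33), and 1, Dkkl1, was lower (-1.87).

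Genes of subcerebral and near-projecting neurons were lower in part. Of 7 layer 5 extratelencephalic genes 4 were lower, with Fezf2, the factor that specifies subcerebral neurons, at -4.78 and Bcl11b (Ctip2), which acts after it, at -2.28. Pou3f1 was the 1 higher gene at 35.5, 44.7, 44.5 and 33.6 CPM against 16.0, 16.3, 13.3 and 10.4 CPM (1.38), but L5-Bcl6 held 275 CPM of it, and the difference turned to -0.30 when the 6 other subtypes were weighted equally. Of 5 near-projecting genes 2 were lower (Tshz2 and Trhr), and Htr2c, which names L5-Htr2c, was at a log2 difference of 0.26, under the fold rule. Of 9 layer 6b and claustrum-type genes 6 were lower, and Synpr, a synaptic vesicle protein, was higher at 176, 143, 132 and 118 CPM against 33.1, 34.3, 34.0 and 25.0 CPM (2.04 ± 0.08), below the L2/3-Rorb level of 320 CPM.

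Genes of general excitatory identity were in part lower. Slc17a7 was at 756, 797, 750 and 1000 CPM against 1052, 1028, 1047 and 1210 CPM (log2 difference -0.53), which did not reach the fold rule. Of 8 such genes 1 was higher, Slc30a3, which loads zinc into synaptic vesicles (1.44), and 3 were lower, the proneural factors Neurod2 (-1.06) and Neurod6 (-1.23) and the second vesicular transporter Slc17a6 (-4.39). Slc17a6 had its level almost wholly in L5-Htr2c, at 185 CPM. In the unsorted libraries Slc30a3 was at 135 CPM in L2/3-Calb1 and at 159 CPM in L2/3-Rorb.

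Receptors for slow transmitters divided by gene. Of 23 neuropeptide receptors 3 were higher and 9 lower, where 5.58% and 8.47% of all genes were. Npy1r, the Y1 receptor of neuropeptide Y, was at 83.3, 88.0, 79.8 and 139 CPM against 23.6, 21.8, 22.7 and 37.8 CPM (log2 difference 1.75 ± 0.07). Npy5r, its Y5 receptor, differed by 1.69 and Oxtr, the oxytocin receptor, by 2.08. In the unsorted libraries Npy1r was at 83.7 CPM in L2/3-Calb1 and at 61.3 CPM in L2/3-Rorb, and Npy5r at 8.95 and 6.44 CPM. Oxtr was higher in L6-Npy (9.21 CPM) than in L2/3-Calb1 (5.79 CPM). Sstr2, a somatostatin receptor, was at 1.54, 3.44, 3.87 and 0 CPM against 46.5, 43.6, 45 and 56.9 CPM (-4.34), and Oprk1, the receptor of dynorphin, differed by -3.17. Hcrtr2, an orexin receptor, had 0 UMIs in all 357 neurons and was thus at least 9.63-fold lower than in the others, taking 3 UMIs over the 4 libraries as the floor.

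Of 29 monoamine, acetylcholine and cannabinoid receptors 3 were higher and 12 lower, where 5.58% and 8.47% of all genes were. Htr1b, a serotonin receptor that inhibits release, was at 42.2, 44.7, 38.7 and 47.2 CPM against 10.1, 9.57, 9.97 and 14.6 CPM (log2 difference 1.87). Adra2c, an inhibitory adrenergic receptor, differed by 1.20. Drd1, the D1 dopamine receptor, was at 4.63, 8.85, 4.84 and 6.35 CPM against 36.5, 37.1, 36.4 and 37.7 CPM (-2.70). Htr1f (-4.54) and the nicotinic subunit gene Chrna4 (-4.32) were also low. Drd5, the D5 dopamine receptor, rested on 1 UMI, a ratio of 59.6 (Poisson interval 10.7 to 2355).

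Peptides and calcium-binding proteins gave few members. Of 13 neuropeptides 2 were higher and 4 lower, where 5.58% and 8.47% of all genes were. Beside Pdyn the higher one was Cck, cholecystokinin, at 2770, 2670, 2603 and 981 CPM against 1151, 1080, 1202 and 510 CPM (log2 difference 1.03). Npy, the gene that names L6-Npy, was lower by 3.65 on the log2 scale. Of 17 calcium-binding proteins Calb1 and Necab2 were higher (Necab2 111, 93.4, 109 and 67.2 CPM against 8.78, 9.48, 10.0 and 9.27 CPM, 3.24), and S100b and Ncald were lower. Calb2 rested on 1 UMI, a ratio of 4.69 whose Poisson interval (0.841 to 185) includes no difference.

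The GABA-A receptor genes differed by alpha subunit. Gabra2 was at 354, 326, 343 and 470 CPM in L2/3-Calb1 and at 66.6, 65.5, 63.3 and 90.2 CPM in the other neurons (log2 difference 2.26 ± 0.07), while Gabra5, known for extrasynaptic receptors, was at 19.5, 26.6, 16.0 and 21.8 CPM against 113, 113, 108 and 106 CPM (-2.52 ± 0.11). Gabrd, the delta subunit of tonic receptors, differed by 1.59. Of the 14 GABA receptor genes 3 were higher and 2 lower, where 5.58% and 8.47% of all genes were. Among 14 ionotropic glutamate receptors none was higher and 2 were lower, led by the kainate subunit Grik3 at 1.54, 5.41, 4.35 and 8.17 CPM against 91.2, 97.5, 90.2 and 154 CPM (-4.64). Of 7 metabotropic glutamate receptors 3 were lower.

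Of 41 potassium and HCN channel genes 5 were higher and 6 lower, against 5.58% and 8.47% of all genes. Kcnip2, an auxiliary subunit of A-type channels, was at 121, 111, 108 and 115 CPM against 27.8, 26.8, 29.0 and 34.1 CPM (1.85). Kcnj2, an inward rectifier, differed by 1.83 and Kcnc2, a fast delayed rectifier, by 1.68. Of 26 sodium and calcium channel genes 2 were higher, led by Cacng3, a TARP that carries AMPA receptors (1.40), and 2 were lower, which is near the shares over all genes.

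Adhesion and guidance genes went both ways. Of 23 cadherins and protocadherins 7 were higher and 4 lower, against 5.58% and 8.47% of all genes. Pcdh20 was at 3.72, Pcdh8 at 3.00, Cdh7 at 2.55 and Cdh4 at 2.37 as log2 differences. In the unsorted libraries Pcdh8 was at 97.4 CPM here and at 89.4 CPM in L5-Bcl6, and Cdh7 at 60.3 and 57.5 CPM. Cdh4 was at 47.0 CPM here and at 38.9 CPM in L6-Npy. Pcdh20 was at 34.9 CPM here and at most at 6.96 CPM in any other subtype. Of 46 axon guidance genes 7 were higher and 9 lower, against 5.58% and 8.47% of all genes. Epha6, an ephrin receptor, was at 21.1, 14.8, 15.5 and 22.7 CPM against 2.82, 2.80, 2.84 and 5.23 CPM (2.35). Nrp1, the class 3 semaphorin coreceptor, was at 10.3, 9.34, 16.4 and 15.4 CPM against 61.9, 61.0, 59.9 and 52.4 CPM (-2.36), and Sema3e, one of its class of ligands, differed by -4.14. Of 30 synaptic organizers 3 were higher and 4 lower, again beside 5.58% and 8.47% of all genes. Lrrtm4 was at 1.3, Nptxr, the neuronal pentraxin receptor, at 1.24 and Lrrtm2 at -1.75.

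**Figure D4:**
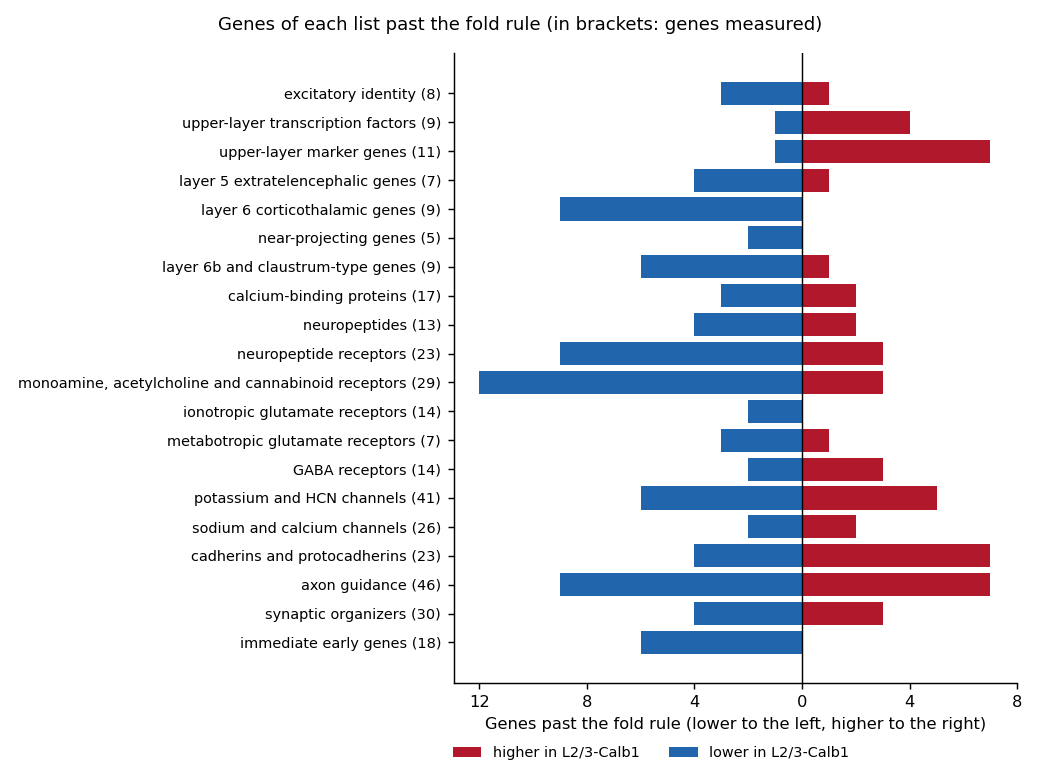
Number of genes of each list past the fold rule in L2/3-Calb1 against the other excitatory neurons (higher to the right, lower to the left; genes measured in brackets). The corticothalamic list is lower in 9 of 9 genes, and the upper-layer markers are higher in 7 of 11.

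Of 18 immediate early genes none was higher and 6 were lower, against 8.47% of all genes, with a list median of -0.87 against -0.05 for all genes. Arc, which regulates AMPA receptor uptake, was at 66.3, 73.8, 98.7 and 84.4 CPM against 248, 253, 266 and 298 CPM (log2 difference -1.84 ± 0.09). Fos was at 242, 234, 302 and 215 CPM against 522, 523, 566 and 574 CPM (-1.26). Npas4, Ier2, Dusp1 and Egr4 were the other 4, at -1.43, -2.74, -1.69 and -1.16. L6-Syt6, with 5092 neurons the largest of the other subtypes, weighs most in these differences, and L5-Bcl6 was as low as L2/3-Calb1. The count of 6 was not redone with the subtypes weighted equally. Egr4 in the unsorted libraries was at 152 ± 46.3 CPM in L2/3-Calb1, 138 ± 36.3 in L5-Bcl6 and 181 ± 19.0 in L5-S100b (SD, n = 3). It was at 49.4 CPM in L5-Htr2c, 262 in L6-Npy, 303 in L2/3-Rorb and 334 in L6-Syt6. In the unsorted libraries Fos was at 260 ± 37.3 CPM in L2/3-Calb1, 203 ± 50.4 CPM in L5-Bcl6 and 662 CPM in L6-Syt6 (means, SD, n = 3), and Arc at 79.6 ± 17.0, 66.3 ± 21.2 and 324 CPM. Of 7 heat shock and stress genes 2 were lower, and of 10 interferon and antigen presentation genes 3 were lower, led by Ifi27 (-4.28). The 13 mitochondrially encoded genes held none past the rule.

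Over the 15496 genes the profile, as log2(CPM + 0.5), correlated most with that of L6-Npy (Pearson r = 0.966), then L2/3-Rorb (0.963), L5-S100b (0.961), L5-Bcl6 (0.953), L6-Syt6 (0.933) and L5-Htr2c (0.903). These are correlations across genes, which are not independent replicates, and the sums share libraries, so the first 3 are given in order only.

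The second question was how the L2/3-Calb1 neurons of the EGFP-sorted library differed from those of the unsorted ones. Their share of all excitatory neurons was 2.50% (Wilson 95% interval 1.84 to 3.38) in the sorted library, below the 3.94%, 4.18% and 4.14% of the unsorted ones. With edgeR's quasi-likelihood test and Benjamini-Hochberg adjustment (adjusted p under 0.05, log2 difference of at least 0.5), 790 of 11131 genes (7.1%) were higher in the sorted library and 1510 (13.6%) were lower. Without the 6 neurons with layer 6 genes the counts were 751 and 1474, and with DESeq2 they were 317 and 869. A single sorted library of 40 neurons stands against 3, so its spread was taken from the unsorted libraries.

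Of 13 mitochondrially encoded genes 10 fell in the sorted neurons and 1, mt-Atp8, rose (log2 difference 0.71). The transcript of mt-Co3, a cytochrome oxidase subunit, was at 14437, 13502 and 13635 CPM in the unsorted libraries and at 3747 CPM in the sorted one (log2 difference -2.05 ± 0.06, adjusted p = 2.95e-35 by edgeR's quasi-likelihood test). In the other neurons the same difference was -1.78. Cck fell as well, from 2770, 2670 and 2603 CPM to 981 CPM (-1.62 ± 0.07), with -1.26 in the other neurons. Bc1, a noncoding RNA of dendrites, rose from 287, 280 and 321 CPM to 1262 CPM (1.92 ± 0.08), with 1.99 in the others.

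Genes of synaptic and channel function were among those that rose. Log2 differences were above 0 in 33 of 37 potassium and HCN channel genes (list median 0.39). They were above 0 in 21 of 24 sodium and calcium channel genes (0.39) and in 27 of 28 synaptic organizers (0.36). Over all genes 49.1% were above 0, with a median of -0.015. Kcna2, a voltage-gated potassium channel of axons, was at 68.9, 80.6 and 69.7 CPM in the unsorted libraries and at 158 CPM in the sorted one (log2 difference 0.94 ± 0.15, adjusted p = 6.92e-07, edgeR). Flrt1, a latrophilin ligand, was at 27.3, 30.5 and 28.1 CPM against 88.9 CPM (1.47), and Camk2a, the calcium-dependent kinase of synapses, was at 645, 648 and 591 CPM against 1419 CPM (1.01). In the other neurons the same fit gave 0.80, 0.65 and 0.97 for these 3 genes. The medians of the 3 lists were 0.19, 0.27 and 0.28 there, against 0.0004 over all genes. The greater depth of the sorted neurons and their lower mitochondrial share moved with these genes, and their part in the result was not tested.

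Subtype genes differed too. Calb1 (-0.10, adjusted p = 0.523, edgeR) did not pass the test. Bhlhe22 fell from 307, 288 and 268 CPM to 204 CPM (log2 difference -0.66 ± 0.11, adjusted p = 7.5e-06, edgeR) while in the other neurons it did not pass (adjusted p = 0.997). Stard8, a GTPase-activating protein, rose from 26.2, 30.5 and 24.2 CPM to 60.8 CPM (1.00 ± 0.22), Pou3f2 by 1.01 and Pdyn by 0.65. Igfbp2 and Mgp fell by 1.23 and 2.00 on the log2 scale, with -1.46 and -0.65 in the others. Pcp4 and Rprm passed as lower (-1.97 and -2.03), but without the 6 neurons they were at -0.07 and -0.48, with adjusted p = 0.927 and 0.448 by edgeR.

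Among 18 immediate early genes 2 had a log2 difference above 0 in the sorted L2/3-Calb1 neurons, with a list median of -0.30. Over all genes 49.1% were above 0, with a median of -0.015. Junb was at 624, 555 and 618 CPM in the unsorted libraries and at 425 CPM in the sorted one (log2 difference -0.66 ± 0.09, adjusted p = 9.8e-08, edgeR), with the sorted value below all 3. Egr4 was at 153, 105 and 197 CPM against 98.9 CPM (-0.79), Npas4 at 68.4, 71.3 and 111 CPM against 56.3 CPM (-0.74), and Ptgs2 at 57.6, 25.6 and 60 CPM against 29.9 CPM (-0.84), inside the unsorted range. Egr2, Ier2 and Dusp1 were lower as well. In the other neurons' own fit Junb was at -0.28, Egr4 at -0.13 and Npas4 at 0.19, and 0 of 18 passed the same rule, against 9.06% of all genes that fell there. The difference between the cell groups was called by edgeR in 7 of these 18 genes and by limma on the difference per library in none.

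The genes at the ends of this comparison had few UMIs. Emx2, a homeobox factor, had 10 UMIs in the sorted library and 3, 2 and 2 in the unsorted ones (log2 difference 2.73 ± 0.83, adjusted p = 0.00986, edgeR). Gm38039, A230083N12Rik, Pter and Gm26720 followed with 8, 9, 9 and 9 UMIs in the sorted library, and each lost its call without unsorted library 1. Klf2, Tgm3 and Poll, among the lowest, had 0 UMIs in the sorted library, where 3 UMIs correspond to 2.72 CPM.

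Whether the difference between sorted and unsorted libraries was itself larger or smaller in L2/3-Calb1 than in the other neurons was tested as an interaction. With edgeR's quasi-likelihood test 38 genes had a more positive and 533 a more negative sorted minus unsorted difference in L2/3-Calb1 than in the others, 571 of 16398 (3.48%), and 7 of 18 immediate early genes were among the 533. The genes were not called by limma on the difference per library, an alternative chosen after seeing the data, which gave 0 and 0 at the same threshold (2672 at an unadjusted p under 0.05). The median log2 interaction over all genes was -0.15. P2rx4, an ATP-gated channel, gave the smallest p of the named genes, with 9.26, 13.3 and 5.81 CPM in the unsorted and 47.2 CPM in the sorted L2/3-Calb1 neurons, against 16.7, 15.4, 16.5 and 17.9 CPM in the others (log2 interaction 2.05 ± 0.31, adjusted p = 3.37e-09, edgeR).

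The third question was how L2/3-Calb1 neurons in which the viral transcript was seen differed from those in which it was not. The matrices hold the barcodes of all targets as 1 feature, so the target of a neuron is not analysed here. At 5 or more barcode UMIs, 25.9% ± 1.72 (SD, n = 3) of the unsorted L2/3-Calb1 neurons were labelled against 39.5% ± 1.06 of the other neurons, a difference of -13.6 ± 0.668 percentage points, lower in 3 of 3 libraries. At 10000 UMIs per neuron and 1 or more barcode UMIs the difference was -12.1 ± 1.84 points. An exact two-sided permutation test gave p = 0.25 for each, the smallest that 3 pairs allow. Labelled neurons also held fewer copies, with a median of 5, 5.5, 5 and 3 barcode UMIs in L2/3-Calb1 and of 8, 9, 9 and 8 in the others. The share was not particular to L2/3-Calb1: with the limit of 5 UMIs L6-Syt6 was at 27.6% ± 0.781, L5-Htr2c at 2.59% ± 1.31 and L2/3-Rorb, the other subtype of the same layers, at 66.0% ± 5.03.

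Expression was compared between neurons with at least 1 barcode UMI (56, 44 and 52 in the unsorted libraries) and those with none (55, 60 and 50), with the library as a block. Of the positive neurons 8, 5 and 11 held a single barcode UMI. The level of free viral RNA was not measured, so labelled means here only that a barcode UMI was seen. In edgeR's quasi-likelihood test 4 of 9445 genes (0.0424%) passed, 3 higher and 1 lower, while 481 had an unadjusted p under 0.05. Leaving out 1 unsorted library gave 5 to 11 genes higher and 2 to 6 lower. Egr4, an immediate early transcription factor, was at 225, 159 and 253 CPM in labelled and at 71.2, 64.2 and 137 CPM in unlabelled neurons (log2 difference 1.23 ± 0.13, adjusted p = 5.54e-06, edgeR), higher in 3 of 3 libraries with no overlap. Gadd45g, a growth arrest and DNA damage protein induced by activity, was at 185, 142 and 157 CPM against 87.6, 69.4 and 117 CPM (0.82 ± 0.13, adjusted p = 0.00292, edgeR).

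The calls of Gadd45g, Nnat and Dusp1 depended on the analysis. Nnat, neuronatin, an endoplasmic reticulum proteolipid, was at 174, 163 and 192 CPM in labelled and at 429, 216 and 346 CPM in unlabelled neurons (log2 difference -0.89 ± 0.12, adjusted p = 0.000237, edgeR). Dusp1, a phosphatase of MAP kinases, was at 82.4, 80.8 and 131 CPM against 37.2, 54.0 and 84.3 CPM (0.75 ± 0.14, adjusted p = 0.0404, edgeR), so the groups overlapped across libraries, and without the 6 neurons with layer 6 genes its adjusted p was 0.359. With DESeq2 only Egr4 passed and the other 3 lost their calls, and with the limit of 5 barcode UMIs 14 genes were higher and 2 lower.

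Of the 18 immediate early genes 2 passed (Egr4 and Dusp1). Their log2 differences were above 0 in 17, with Jun as the exception, and had a median of 0.34, while 50.1% of all genes were above 0 with a median of 0.0003. These genes are not independent of each other. Labelled neurons were somewhat deeper, with median UMIs of 18407.5, 19308 and 19996 against 16854, 19125 and 18953.5, and the part of depth in the result was not tested beyond the neurons of 15000 or more UMIs, where 2 genes were higher and 1 lower.

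**Figure D5:**
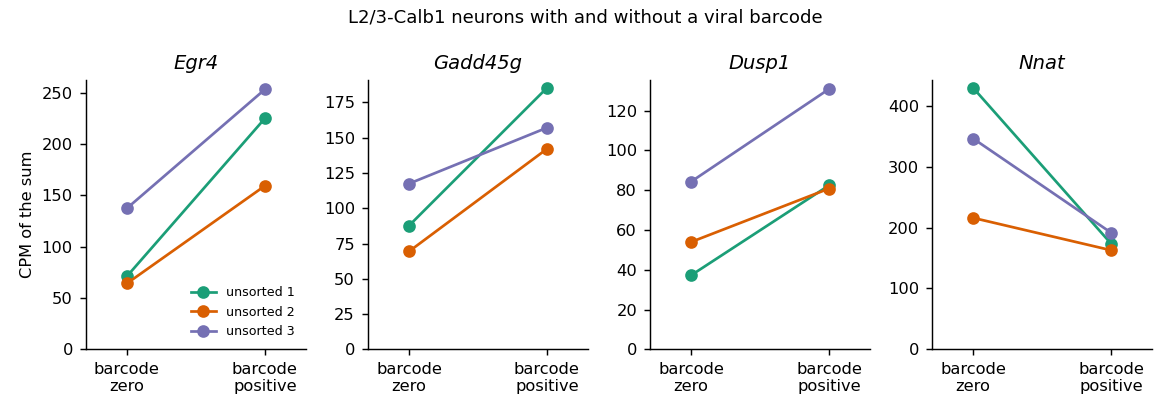
CPM of Egr4, Gadd45g, Dusp1 and Nnat in L2/3-Calb1 neurons with and without viral barcode UMIs, with a line joining the 2 groups of each unsorted library. The lines of Egr4, Gadd45g and Dusp1 rise toward the labelled neurons in all 3 libraries, and that of Nnat falls.

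Finally, the spread among the L2/3-Calb1 neurons of 1 library was described by the Fano factor (variance over mean of UMIs) at 10000 UMIs per neuron, for which the median over 7009 genes was 1.03. The nuclear noncoding RNAs Malat1 (41.7) and Meg3 (7.86) were among the leading 10. The 3 leading genes of the immediate early list were Egr4, Junb and Fos. Egr4 had a median of 11.7 over the unsorted libraries (11.7, 4.07 and 13.3), Junb of 7.72 and Fos of 7.71. With the deposited counts scaled and not thinned, these 3 genes were at 21.2, 13.1 and 10.8. Of the leading 10 values 9 moved by more than the spread between libraries. Btg2, an antiproliferative factor, was at 6.90 and Gadd45g at 6.14. Pcp4 was at 1.00 in unsorted library 1 and at 11.6 and 8.74 in libraries 2 and 3, which hold the 6 neurons with layer 6 genes. Actb (7.29) and Nrgn (6.84), which encode actin and neurogranin, completed the leading 10.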

How the data were processed

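Single-cell RNA-seq was analysed from 4 libraries. The authors made the matrices of UMI counts with Cell Ranger 3.0.2 (matrix header, build mm10), and the deposited counts are raw, 1 value per gene and cell. Their cells had 1000 to 60000 UMIs, 500 to 8000 genes and less than 20% mitochondrial UMIs. They processed these cells with Seurat 3.1.4, clustered them by the Leiden algorithm in Scanpy and deposited subtype labels, which were used as given. The percent of mitochondrial UMIs per cell was deposited by the authors with the labels. Beyond these upper limits no step against doublets was added, and no doublet caller was run. The viral feature was left out of sums and tests. Intervals cover counting error only.

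UMIs of each library and cell group were summed and fitted over all genes with edgeR 4.0.16 (quasi-likelihood, TMM, filterByExpr). The profile and the barcode comparison had the library as a block, because both groups came from the same animals. In tests a gene passed at an adjusted p of 0.05 and a log2 difference of 0.5. DESeq2 1.42.0, limma 3.58.1, other scaling and filters and leaving out each library were alternatives. The fits were tested on simulated data. Unsorted libraries are separate mice. The sorted library is a single pool, so p-values of sorted against unsorted measure the spread between these samples only. Thinning drew UMIs without replacement.

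The subtype, the 30 gene lists (428 genes) and the tests were chosen with earlier results of these data known. Named genes are the 15 highest and 10 lowest differences at 20 CPM or more, the 10 highest ratios to the next subtype, the label genes, the 5 highest and lowest calls of each test, the 10 highest Fano factors and list members that passed. Coordinates are from GENCODE for GRCm38 and were found for 200 of 200 named genes. Reads of overlapping genes were taken as counted by the authors. Some genes are not reported here.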

Additional observations from a re-analysis of the deposited data

Results flagged for a closer look

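The difference between sorted and unsorted libraries differed between L2/3-Calb1 and the other neurons in 571 genes by edgeR's interaction test. None passed by limma on the difference per library, so these values are given without further reading.

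On the side where the L2/3-Calb1 difference was lower, the 5 extreme genes had 0 UMIs in the sorted L2/3-Calb1 neurons. Penk, the enkephalin precursor, had 7, 8, 12 and 0 UMIs (edgeR adjusted p = 0.00748), Tgm3 7, 13, 16 and 0 (0.0085), Eps8l1 8, 6, 6 and 0 (0.0410), Poll 9, 9, 16 and 0 (0.0174) and Sema3d 11, 4, 9 and 0 (0.0231). In the other neurons the sorted library had 141, 119, 80, 228 and 385 UMIs of these genes.

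On the higher side, Mirt1 had 0, 0, 0 and 2 UMIs in L2/3-Calb1 and 185, 141, 142 and 28 in the others (edgeR adjusted p = 0.0175). Maf had 3, 6, 4 and 8 against 83, 78, 66 and 13 (0.000986), and Rrh had 2, 2, 1 and 9 against 75, 73, 57 and 71 (0.0245). Slc1a3 had 49, 30, 42 and 14 against 109, 79, 113 and 7 (0.00214). P2rx4 had 18, 27, 12 and 52 against 982, 838, 927 and 898 (3.37e-09).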

How the results depend on the processing

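The subtype profile (865 higher and 1313 lower) gave 532 and 988 with the other 6 subtypes weighted equally, 853 and 3031 without the filter on low counts, and 1732 and 2440 at a log2 difference of 0.5. Leaving out 1 library gave 949 to 1033 and 1374 to 1422. With equal weights 127 of 175 named genes moved by more than the spread between libraries, 47 did not, and Pou3f1 reversed to -0.30. With no replicate block the profile gave 895 and 1197 and the barcode comparison 2 and 1. DESeq2 gave 317 and 869 genes for sorted against unsorted, 11 and 274 for the interaction (12081 of 16398 genes without an adjusted p) and 1 and 0 for the barcode comparison, where 25 genes had an unadjusted p under 0.05. Limma on the difference per library gave 0 and 0 for the interaction. Leaving out each unsorted library gave 604 to 810 and 1256 to 1510 for sorted against unsorted, 26 to 46 and 492 to 517 for the interaction, and 5 to 11 and 2 to 6 for the barcode comparison, which gave 9 and 1 without the filter, 14 and 2 at 5 or more barcode UMIs, and 7 and 1 with all 4 libraries. Dusp1 lost its call with DESeq2, without unsorted library 1, with no block, at 15000 or more UMIs and without the 6 neurons, and Gadd45g and Nnat lost theirs with DESeq2. The sorted minus unsorted subtype share was -1.59 points and moved to -1.44 at 15000 or more UMIs. The labelled share was 47.9% (25.9% at 5 UMIs, 41.8% thinned), and its sorted minus unsorted difference of 29.6 points moved to 1.63 and 14.6. The causes were not tested. No paired analysis of sorted against unsorted was possible, because the sorted and unsorted libraries came from different mice. The limma alternative and the one without the 6 neurons were chosen after seeing the data. The 40 sorted neurons, 1101983 UMIs in all, set the depth: a gene at 0 there may be at up to 2.72 CPM.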
